A study of Mus musculus with 6 samples.

Results

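The DNA replication machinery was followed here through 46 genes that encode the proteins which mark replication origins, load and start the replicative helicase, and synthesize and join the new strands. The genes were taken by name from a list that was chosen with earlier results of these data known. All 46 were found among the 16440 genes of the deposited table. The data were 6 RNA-seq libraries of sorted mouse bone marrow (BM) cells of the FVB/NJ strain, 3 from normal myeloid progenitors (MPs) and 3 from c-Kit+ acute promyelocytic leukemia (APL) progenitors. The sort of normal MPs took c-Kit+ cells negative for lineage markers (Lin-) and for Sca-1, which leaves out mature cells and Sca-1+ stem cells. The c-Kit+ APL progenitors descended from hMRP8-PML/RARα transgenic mice, in which the human MRP8 promoter drives the fusion protein in myeloid cells. They had received GFP from the retroviral vector MigR1 and had been expanded by transplantation into syngeneic recipients, and were sorted for GFP and c-Kit. Neither group had been treated with a drug, as far as the labels state, and the labels give no age for the mice. The fusion protein, the vector, the passage through recipients and the different sort markers all separate the groups together. Their parts in a difference cannot be told apart. The labels call the 3 libraries of a group biological replicates without saying that each came from a separate mouse, so n counts libraries and p-values measure the spread between them.

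Replication is prepared in G1, when the origin recognition complex (ORC), CDC6 and CDT1 load the MCM2-7 hexamer onto DNA, a step that geminin blocks once S phase has begun. The kinase CDC7 with its activator DBF4 then prepares MCM2-7 for CDC45 and the GINS complex, and the joined assembly (the CMG helicase) opens the fork. Polymerase alpha-primase lays primers, polymerase epsilon extends the leading strand and polymerase delta the lagging strand, with the sliding clamp PCNA and its loader RFC. Dividing progenitors of the marrow are rich in these transcripts, and many of the genes are transcribed under E2F factors at the entry into S phase. In a bulk library, fewer cells in S phase and less RNA per cell cannot be told apart.

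E2F words were searched in the promoters of the members, and 6 stretches are shown, from members that were higher (Mcm6, Mcm5 and Gins3) or lower (Pola1 and Cdc6) and held a word and from Orc5, which held none. Windows of 300 bases, from 250 bases before to 50 after a start site, were available from RefSeq (GRCm38.p6) for 38 of the 46 genes. The words TTTCCCGC, TTTCGCGC, TTTGCCGC and TTTGGCGC, which can overlap one another, were read on both strands. A match was found for 16 of the 38 genes (42.1%), against 2.60% of all 27025 genes with a window. The word CCAAT was found for 55.3% of the 38 genes and 41.1% of all genes, and TTTGAA for 18.4% and 20.2%. By direction, 5 of 7 higher members with a window held an E2F word, 5 of 20 lower members (Mcm7, Orc1, Cdc6, Pola1 and Pold3) and 6 of 11 that did not pass the test below, a description without a test. A word outside the extent of the gene was held by 3, 0 and 2 of these. Every match of a lower member lay inside its gene, but this follows the annotated extent rather than the start site. Words of Mcm7 (−165), Orc1 (−27), Cdc6 (−138) and Pola1 (−138) lay before the start site used, and that of Pold3 (17) after it. Of the higher members, the words of Cdt1 (32) and Pole2 (10) lay after it. The stretches run 5′ to 3′ on the strand of the gene, and capitals mark the E2F words. Those of Pola1 and Cdc6 lie within the extent of the gene in RefSeq, before an internal start site, and the others lie outside it.
Mcm6, chr1:128359736-128359855, minus strand: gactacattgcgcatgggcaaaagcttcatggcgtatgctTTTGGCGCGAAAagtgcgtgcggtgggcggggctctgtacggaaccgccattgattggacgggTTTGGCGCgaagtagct
Mcm5, chr8:75109299-75109378, plus strand: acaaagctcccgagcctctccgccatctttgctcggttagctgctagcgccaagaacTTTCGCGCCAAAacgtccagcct
Gins3, chr8:95633469-95633548, plus strand: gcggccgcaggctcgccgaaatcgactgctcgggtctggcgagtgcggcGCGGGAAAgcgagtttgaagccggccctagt
Pola1, chrX:93632276-93632305, minus strand: ggtcatcacaggGCGCCAAAtgcactcccg
Cdc6, chr11:98908001-98908030, plus strand: ggccggtggagaGCGGGAAAtcgcctgggg
Orc5, chr5:22550349-22550428, minus strand: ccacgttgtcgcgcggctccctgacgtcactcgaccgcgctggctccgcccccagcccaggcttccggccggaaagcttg
No E2F word was found in the window of Orc5, the member with the largest decrease, nor in that of Cdc45, the member with the largest increase.

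Before the members were compared, the labels of the libraries were checked. Kit, the receptor used in both sorts, had 10442, 10970 and 10592 scaled fragments in the MP libraries and 5780, 5975 and 6033 in the APL libraries. Here and below, values of a group follow the order of its libraries 1, 2 and 3, and scaled fragments are the estimated fragments of a gene after the authors' scaling of each library. Kit passed the test as lower (log2 fold change −0.85). Ly6a, which encodes Sca-1, had 19.1, 30.6 and 32.0 scaled fragments in the MP and 39.0, 42.5 and 48.8 in the APL libraries, an increase at low values (0.68, adjusted p = 0.043 from limma). Of the 7 genes of early granulocytic cells and their primary granules, 5 were higher, and Mpo, the myeloperoxidase gene, was the most abundant in both groups. This list summed to between 326832 and 363564 in the MP and between 804755 and 958349 in the APL libraries.

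Markers of other lineages differed too. The erythroid list (10 of 11 genes measured) summed to 53174, 55539 and 66028 scaled fragments in the MP libraries and to 4706, 4511 and 4463 in the APL libraries, and 8 of its 9 genes tested were lower. Car1, a carbonic anhydrase of erythroid progenitors, led the list in the MP libraries, whereas Tfrc, the transferrin receptor of dividing cells in general, made up most of the APL sum, with 4497, 4155 and 4151. Gata1, the erythroid and megakaryocytic master factor, went from 2589, 2661 and 3335 to 7.07, 18.2 and 29.6. The megakaryocyte list summed to between 2919 and 3914 in the MP libraries, led by Itga2b, and to between 225 and 309 in the APL libraries, led by Vwf, with 5 of 6 genes lower and Gp1bb at 0.08. Gp9 was at or under 3 fragments in every APL library. Of the 5 mast cell and basophil genes, 3 were lower, among them Cpa3, which led in the MP libraries, and 1 was higher, Mcpt8 (log2 fold change 1.13), which led in the APL libraries. Their sum lay between 1501 and 2153 in the MP and between 787 and 991 in the APL libraries. The 7 late neutrophil genes went both ways, with 2 higher (S100a8 at 2.17 and S100a9 at 1.10), 2 lower (Ltf at −1.42 and Ngp at −1.46) and a median of −0.07. Their sum lay between 64863 and 118273 in the MP and between 209963 and 216993 in the APL libraries, where S100a8 led. Of the 6 monocyte and macrophage genes 4 were higher and 2 lower, and their sum, led by Ly6c2, lay between 12741 and 15764 in the MP and between 149920 and 160525 in the APL libraries. Of the 4 stem cell genes 3 were lower and Ly6a was higher, and their sum lay between 909 and 1250 in the MP libraries, led by Hlf, and between 59 and 81 in the APL libraries, led by Ly6a. Slamf1 was at or under 3 fragments in every APL library. Of lymphoid genes, Rag1 had 23.4, 20.0 and 16.2 scaled fragments in the MP libraries and was listed at 0 in the APL libraries. The part of these differences in the members' values below was not tested.

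Total fragments before scaling came to 23606024, 22976905 and 26932327 in the MP libraries and to 20608715, 28382785 and 20911902 in the APL libraries. The lowest value of any member was 527 scaled fragments (Rpa3 in APL library 2). Together the 46 genes held 0.785%, 0.781% and 0.782% of all scaled fragments in the MP libraries and 0.652%, 0.684% and 0.651% in the APL libraries. The APL shares lay below the MP shares without overlap, but the 10 most abundant genes took between 7.42% and 10.5% of an APL library against 5.11% to 5.59% of an MP library, and a share of the total moves with such genes. MP library 3 stood apart from MP libraries 1 and 2, and it was the highest MP library for 34 of the 46 members and the lowest for 7. Its total after scaling was also the highest of the MP libraries (24288946, against 22108198 and 21876288), while the share of the members was alike. APL library 1 was the lowest APL library for 30 of the 46 members. It also had the lowest APL total after scaling (24281188, against 24604752 and 25810097).

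Members were compared between the groups with limma on log2(scaled fragments + 1), with Benjamini-Hochberg adjustment over the 14595 genes tested, and an adjusted p under 0.05 was taken as passing. Of the 46 members, 9 were higher in c-Kit+ APL progenitors (19.6%, against 29.7% of all genes tested) and 23 were lower (50%, against 37.3%). These counts were 7 and 34 with each library scaled to the same total or with voom, and 4 and 12 relative to the median of each gene's chromosome. No share of all genes on the adjusted p is given for these settings, so these counts are not read against other genes. A change of more than 1.5-fold, the threshold of the study, was passed by 4 upregulated members (8.7%, against 21.7% of genes tested) and 7 downregulated members (15.2%, against 24.4%). The share of members past 1.5-fold thus lay below the share of all genes in both directions. The genes tested needed only 1 scaled fragment in 3 libraries, whereas no member lay under 527. The shares of members and of all genes are therefore not matched for expression level. Just inside this threshold, at 0.585 on the log2 scale, were Gins3 at 0.62 and Dna2 at −0.60, and just outside were Gins2 at 0.58 and Rfc4 at −0.52. The median log2 fold change of the members was −0.22, against −0.10 over all genes tested. The 3 libraries of a group did not overlap for 38 members, with APL higher for 9 (31.1% of all genes tested) and lower for 29 (39.8%). For a single gene, an exact permutation test of 3 libraries against 3 cannot give a two-sided p below 0.1. When each library was scaled to the same total, a choice that lowers the median of all genes by a further 0.13, 2 members were upregulated and 11 downregulated more than 1.5-fold. Of all 14595 genes tested, 2753 were higher and 4273 lower past 1.5-fold on that scale, against 3167 and 3558 without it.

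**Figure D1:**
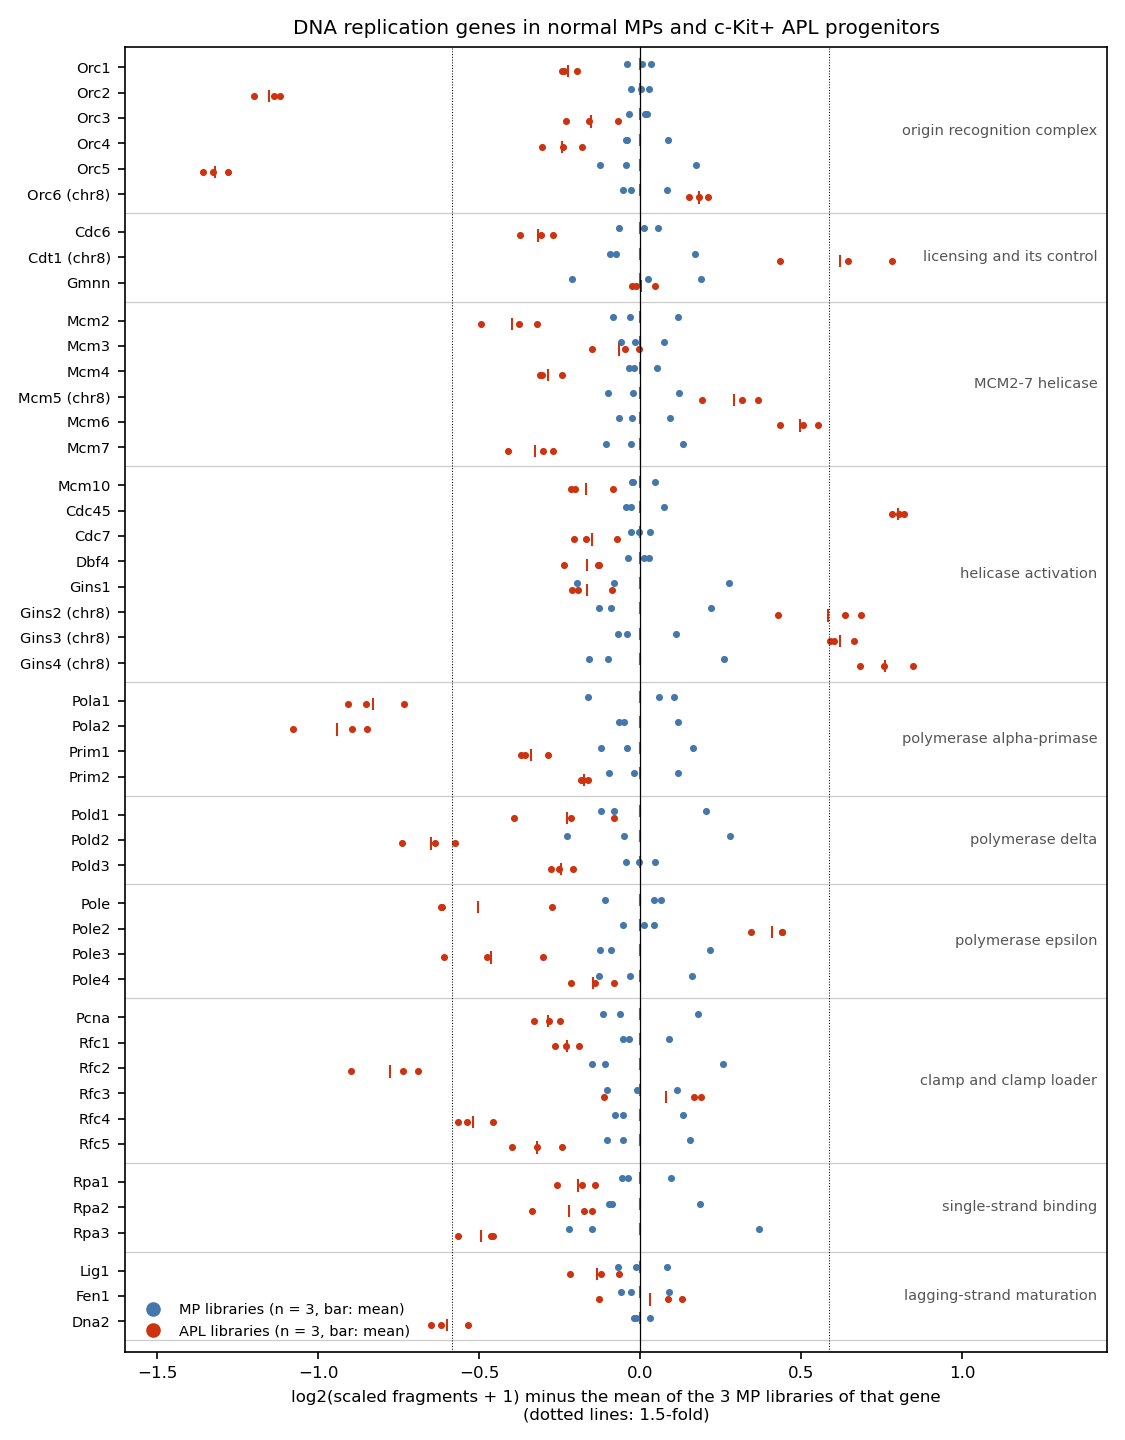
Each point is a library: the x axis is log2(scaled fragments + 1) minus the mean of the 3 MP libraries of that gene, for the 46 members grouped by role (MP blue, APL red, vertical bars the means, n = 3 each, dotted lines 1.5-fold). The 9 members higher in APL include the 6 marked as lying on chromosome 8, and Orc2 and Orc5 lie farthest to the left.

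The origin recognition complex has 6 subunits and binds origins, and its genes did not move together. Orc5, an ATPase-fold subunit (chromosome 5 of GRCm38.p6, from 22486480 to 22550338), had 1616, 1710 and 1988 scaled fragments in the MP libraries and 726, 687 and 702 in the APL libraries. All APL values lay under the lowest MP value, and the log2 fold change of −1.32 (standard error 0.09, a 2.50-fold decrease, adjusted p = 2.2e-06 from limma) was the largest decrease of any member. Orc2 (chromosome 1, from 58462771 to 58505113) had 3572, 3656 and 3717 scaled fragments in the MP libraries and 1679, 1586 and 1658 in the APL libraries. Its libraries also stayed apart, with a log2 fold change of −1.15 (standard error 0.06, 2.22-fold lower, adjusted p = 5.5e-07 from limma). Orc6, which completes the complex and lies on chromosome 8 from 85299632 to 85308279, went the other way. It had 1454, 1430 and 1573 scaled fragments in the MP libraries and 1686, 1649 and 1717 in the APL libraries, a log2 fold change of 0.18 with an adjusted p of 0.042 from limma. That increase is small, it turned to −0.30 relative to the median of chromosome 8 (adjusted p = 0.0047 from limma), and the adjusted p of Orc6 lay between 0.0797 and 0.149 when MP library 1 or 2 or any of the APL libraries was left out. Orc1, the ATP-hydrolysing subunit, and Orc4 had log2 fold changes of −0.23 and −0.24 and passed the test, whereas Orc3 at −0.15 did not (adjusted p = 0.075 from limma). With median ratio scaling of the libraries neither Orc1 (adjusted p = 0.0542) nor Orc4 (0.0861, both from limma) passed. Orc1 no longer passed without MP library 2 (adjusted p = 0.0651) or without APL library 1, 2 or 3 (0.0586, 0.0634 and 0.0543), nor Orc4 without MP library 2 (0.0828) or APL library 2 or 3 (0.0744 and 0.0587), all from limma. Per transcript length, Orc6 stood at 0.885, 0.877 and 0.907 times Orc2 (ratio of FPKM) in the MP libraries and at 2.18, 2.23 and 2.22 times Orc2 in the APL libraries. This ratio was chosen after the values were seen and is given without a test.

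The loading factors moved in both directions as well, although neither Cdt1 (adjusted p = 0.27) nor Cdc6 (0.083) passed limma's test relative to the median of its own chromosome. Cdt1, the MCM2-7 loading factor whose excess re-licenses DNA (chromosome 8, from 122568015 to 122573130), had 3078, 3043 and 3650 scaled fragments in the MP libraries and 4385, 5579 and 5080 in the APL libraries. The groups did not overlap, and the log2 fold change was 0.62 (standard error 0.11, a 1.54-fold increase, adjusted p = 8.4e-04 from limma). Cdc6, the ATPase that works with CDT1 (chromosome 11, from 98907709 to 98923942), had 2758, 2614 and 2844 scaled fragments in the MP libraries and 2111, 2268 and 2208 in the APL libraries, without overlap. It was lower by a log2 fold change of −0.32 (standard error 0.07, adjusted p = 0.0026 from limma). Gmnn, which encodes geminin, the inhibitor of CDT1 (chromosome 13, from 24751845 to 24761937), had 1688, 1990 and 2231 scaled fragments in the MP libraries and 1924, 1941 and 2019 in the APL libraries. The APL values of Gmnn fell within the MP range, giving a log2 fold change of 0.003 (standard error 0.10, adjusted p = 0.98 from limma). The ratio of Cdt1 to Gmnn in FPKM was 0.987, 0.813 and 0.869 in the MP libraries and 1.16, 1.46 and 1.41 in the APL libraries, a description without a test.

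The 6 subunits of the MCM2-7 helicase form 1 ring with 1 copy of each, yet their transcripts moved in both directions. Mcm6 (chromosome 1, from 128331575 to 128359705) had 15220, 14799 and 16511 scaled fragments in the MP libraries and 20927, 22698 and 22019 in the APL libraries. It was higher in every APL library than in any MP library, with a log2 fold change of 0.50 (standard error 0.09, 1.41-fold, adjusted p = 9.0e-04 from limma). Mcm5 (chromosome 8, from 75109468 to 75128439) had 11577, 10971 and 12765 scaled fragments in the MP libraries and 13430, 15133 and 14617 in the APL libraries. Its increase was smaller, at 0.29 on the log2 scale (standard error 0.09, limma adjusted p = 0.019), and its adjusted p lay between 0.0562 and 0.0775 without MP library 1 or 2 or without APL library 2 or 3. Mcm2, a subunit that also chaperones histones, was lower. Mcm2 (chromosome 6, from 88883474 to 88898780) had 9529, 9178 and 10572 scaled fragments in the MP libraries and 6910, 7792 and 7508 in the APL libraries, a log2 fold change of −0.40 (standard error 0.08, adjusted p = 0.0028 from limma). Mcm7 (chromosome 5, from 138164583 to 138172111) had 12494, 11839 and 13970 in the MP and 9571, 10340 and 10550 in the APL libraries, a log2 fold change of −0.33 (standard error 0.09, adjusted p = 0.0098). Mcm4 (chromosome 16, from 15623897 to 15637400) had 8075, 7610 and 7691 in the MP and 6274, 6307 and 6575 in the APL libraries, a log2 fold change of −0.29 (standard error 0.07, adjusted p = 0.0047). The APL libraries lay below the MP libraries without overlap for Mcm2, Mcm7 and Mcm4. Relative to the median of their own chromosome, none of these 3 decreases passed the test (adjusted p = 0.068, 0.22 and 0.10 from limma), and Mcm5 turned to −0.19 (0.10), so that Mcm6 was the only subunit past the test on that scale. Mcm3 (chromosome 1, from 20802966 to 20820312) was the only subunit whose groups overlapped, with 10474, 10158 and 11150 scaled fragments in the MP libraries and 9541, 10551 and 10245 in the APL libraries (log2 fold change −0.07, standard error 0.08, adjusted p = 0.47 from limma).

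On the scale per transcript length, the order of the subunits changed. In normal MPs the levels were 184 ± 12.2 FPKM for Mcm7 and 182 ± 8.69 for Mcm6 (SD, n = 3 each), which did not differ beyond their spread. They were followed by Mcm5 (122 ± 7.45) and Mcm3 (121 ± 3.55), again within their spread, then by Mcm2 (101 ± 4.97) and Mcm4 (73.1 ± 2.17). In c-Kit+ APL progenitors Mcm6 stood first at 259 ± 9.66 FPKM, followed by Mcm5 (149 ± 8.28) and Mcm7 (148 ± 6.74), which could not be separated, and then by Mcm3 (117 ± 5.61), Mcm2 (78.3 ± 4.58) and Mcm4 (60.1 ± 0.896). The ratio of Mcm6 to Mcm7 in FPKM was 0.987, 1.01 and 0.972 in the MP libraries and 1.77, 1.78 and 1.69 in the APL libraries. FPKM rests on the transcript length that the authors' processing assigned, so a ratio between genes carries that assumption in both groups alike.

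**Figure D2:**
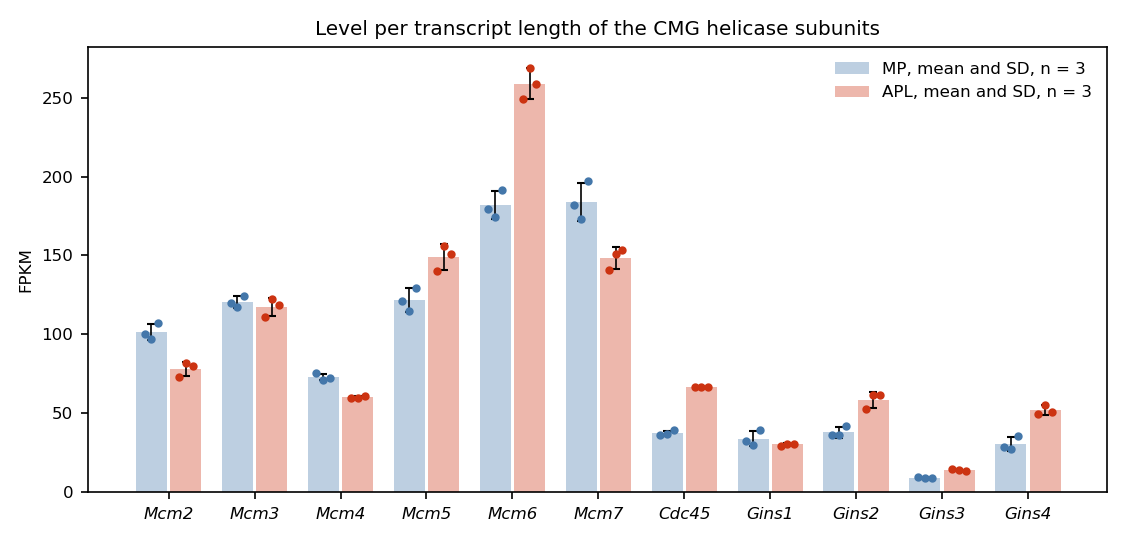
Bars give the mean FPKM and error bars the SD of 3 libraries for the genes of the CMG helicase (MP blue, APL red), with each library as a point. Mcm6 rises from 182 to 259 FPKM while Mcm7 goes from 184 to 148, and Cdc45, Gins2, Gins3 and Gins4 are higher in every APL library than in any MP library.

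The 8 factors that turn the loaded ring into an active helicase held 4 of the 9 increases (50% of the group, against 29.7% of all genes), and 3 of the 4 lie on chromosome 8, described below. In this group 0 genes were lower at the adjusted threshold of limma, where an unadjusted p under 0.05 gave 2 and scaling to the same total gave 4 lower. Cdc45 (chromosome 16, from 18780447 to 18811972) had 2236, 2261 and 2430 scaled fragments in the MP libraries and 3968, 4030 and 4077 in the APL libraries. The groups were far apart and each was tight, and the log2 fold change of 0.80 (standard error 0.06, 1.74-fold, adjusted p = 6.6e-06 from limma) was the largest increase of any member. GINS is a complex of 4 different subunits that binds beside CDC45. Gins4 (chromosome 8, from 23226610 to 23237668) had 1065, 1024 and 1367 scaled fragments in the MP libraries and 1834, 2054 and 1930 in the APL libraries, a log2 fold change of 0.76 (standard error 0.11, adjusted p = 3.2e-04). Gins3 (chromosome 8, from 95633559 to 95645059) had 720, 647 and 636 in the MP and 1058, 1005 and 1013 in the APL libraries, a log2 fold change of 0.62 (standard error 0.08, adjusted p = 1.4e-04). Gins2 (chromosome 8, from 120581266 to 120589075) had 916, 894 and 1137 in the MP and 1315, 1517 and 1570 in the APL libraries, a log2 fold change of 0.58 (standard error 0.11, adjusted p = 0.0015, all from limma). None of these 3 subunits overlapped between the groups, although the table lists Gins2 under a locus shared with another gene, to which fragments could have been divided. Gins1, the subunit on chromosome 2 (from 150909556 to 150931280), had 803, 742 and 1029 scaled fragments in the MP libraries and 742, 733 and 799 in the APL libraries, which overlapped (log2 fold change −0.17, standard error 0.12, adjusted p = 0.26 from limma). The genes of the upstream kinase had log2 fold changes of −0.15 for Cdc7 (adjusted p = 0.075) and −0.17 for Dbf4 (0.051, both from limma). Mcm10, a scaffold that helps the helicase start, had −0.17 (adjusted p = 0.052 from limma). None of these 3 passed the test, although every APL library lay below every MP library for each of them.

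All 6 members on chromosome 8, namely Orc6, Cdt1, Mcm5, Gins2, Gins3 and Gins4, were higher in c-Kit+ APL progenitors, with log2 fold changes between 0.18 and 0.76. Of the 40 members on other chromosomes, 3 were higher (Cdc45, Mcm6 and Pole2, 7.5%, against 28.1% of genes tested on these chromosomes) and 23 lower (57.5%, against 38.6%). The genes of chromosome 8 as a whole were also raised: their median log2 fold change was 0.48 over 778 genes tested, and 58.9% of them were higher and 14.7% lower at the adjusted threshold. Set against the median of their own chromosome, the 6 members had log2 differences of −0.30 (Orc6), −0.19 (Mcm5), 0.11 (Gins2), 0.14 (Gins3), 0.14 (Cdt1) and 0.28 (Gins4). None of the 6 was then higher at an adjusted p under 0.05, and Orc6 was lower (adjusted p = 0.0047 from limma). On the same relative scale Cdc45 stood at 0.95, Pole2 at 0.59 and Mcm6 at 0.58, each past the test, Rfc3 also passed as higher (0.28, adjusted p = 0.039 from limma), and Orc2 and Orc5 stood at −1.07 and −1.13. The decreases of Mcm2, Mcm4, Mcm7, Orc1, Orc4, Cdc6, Pole3, Pcna, Rfc1, Rfc5, Rpa1 and Rpa3 no longer passed on this scale. The members on chromosome 8 thus lay on both sides of that chromosome's median, Gins4 nearest to passing above it (adjusted p = 0.053 from limma), while Cdc45, Pole2 and Mcm6 exceeded the medians of theirs. With each library scaled to the same total, Orc6 had a log2 fold change of 0.05 (adjusted p = 0.476) and Mcm5 of 0.16 (0.0819, both from limma), and the other 4 members on chromosome 8 still passed.

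**Figure D3:**
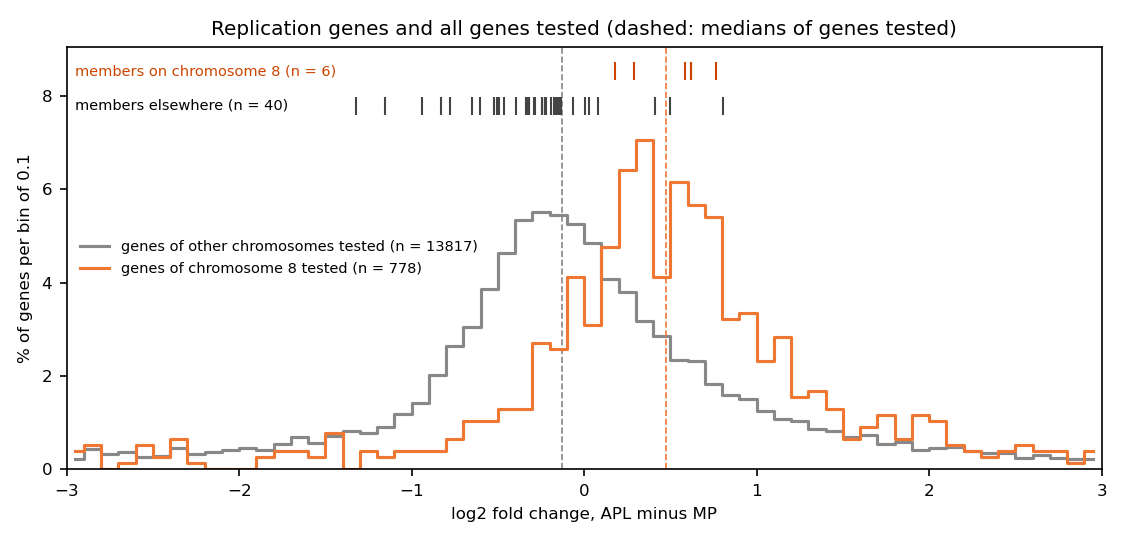
The lines give the percentage of genes tested in each bin of 0.1 of the log2 fold change (APL minus MP) for chromosome 8 (orange, 778 genes) and all others (grey), with dashed medians, and the ticks above give the members. The 6 members on chromosome 8 lie between 0.18 and 0.76, and 3 members from elsewhere reach 0.41 or more.

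Among the role groups, polymerase alpha-primase had the lowest median log2 fold change (−0.58, against −0.10 over all genes), with 3 of its 4 genes lower, where 37.3% of all genes were. Pola2, its accessory subunit (chromosome 19, from 5940543 to 5964238), had 3074, 3102 and 3486 scaled fragments in the MP libraries and 1522, 1786 and 1726 in the APL libraries. Its log2 fold change was −0.94 (standard error 0.09, 1.92-fold lower, adjusted p = 1.4e-05 from limma). Pola1, the catalytic subunit (chromosome X, from 93304766 to 93632387), had 3900, 4024 and 3346 in the MP and 2075, 1996 and 2251 in the APL libraries. The log2 fold change of Pola1 was −0.83 (standard error 0.09, 1.78-fold lower, adjusted p = 3.9e-05 from limma). Neither gene overlapped between the groups. The primase genes changed less: Prim1, the catalytic subunit, had −0.34 and passed the test, and Prim2, the regulatory subunit, had −0.17 and did not (adjusted p = 0.064 from limma).

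Of the 3 polymerase delta genes 2 were lower, and of the 4 polymerase epsilon genes 2 were lower and 1 higher, which is near the 37.3% and 29.7% of all genes for epsilon and rests on few genes for both. Of polymerase delta, Pold2, an accessory subunit, went from 2428 ± 441 to 1531 ± 88.4 scaled fragments (SD, n = 3 each), or −0.65 on the log2 scale (standard error 0.12, adjusted p = 0.0013 from limma). Pold3, a further accessory subunit, had −0.25 and passed, and Pold1, the catalytic subunit, had −0.23 with overlapping groups and did not (adjusted p = 0.095 from limma). Of polymerase epsilon, Pole, the catalytic subunit, had a log2 fold change of −0.50 and Pole3, a histone-fold subunit, −0.46, both past the test, and Pole4, its partner, −0.15, which did not pass. Pole2, the subunit that tethers the polymerase to the helicase, was higher instead, from 965 ± 32.7 to 1281 ± 49.5 scaled fragments (SD, n = 3 each), by 0.41 on the log2 scale (standard error 0.07, adjusted p = 8.5e-04 from limma). The ratio of Pole2 to Pole in FPKM was 1.04, 1.12 and 1.24 in the MP libraries and 1.87, 2.22 and 2.31 in the APL libraries, again without a test.

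Pcna, the sliding clamp (chromosome 2, from 132249286 to 132253180), had the highest level per length of all members in both groups, at 380 ± 42.6 FPKM in the MP and 309 ± 3.69 in the APL libraries (SD, n = 3 each). It had 12147, 12604 and 14926 scaled fragments in the MP libraries and 10470, 10834 and 11072 in the APL libraries. The groups did not overlap, and the log2 fold change was −0.29 (standard error 0.09, adjusted p = 0.024 from limma), but without APL library 1, 2 or 3 the adjusted p was 0.0716, 0.0662 or 0.0516. The clamp loader has 1 large and 4 small subunits. Rfc2, a small subunit (chromosome 5, from 134582690 to 134598328), had 3651, 3550 and 4702 scaled fragments in the MP libraries and 2109, 2360 and 2436 in the APL libraries. It was lower in every APL library, with a log2 fold change of −0.78 (standard error 0.11, 1.71-fold, adjusted p = 3.1e-04 from limma). Rfc4 (−0.52), Rfc5 (−0.32) and Rfc1, the large subunit (−0.23), were also lower, and Rfc3 had 0.08 with overlapping groups (adjusted p = 0.50 from limma). Rfc1 did not pass without MP library 1 (adjusted p = 0.0751) or without APL library 2 or 3 (0.0638 and 0.0560, from limma).

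The single-strand binding complex RPA and the enzymes of the lagging strand completed the set. Rpa3, the smallest RPA subunit, had a log2 fold change of −0.50 and Rpa1, the DNA-binding large subunit, −0.19, both past the test, and Rpa2 had −0.22 and did not pass (adjusted p = 0.067 from limma). The call of Rpa1 was lost whichever library was left out (adjusted p between 0.0581 and 0.136), and that of Rpa3 without APL library 2 (0.0530, from limma). Dna2, a nuclease that trims long flaps of Okazaki fragments, went from 2519 ± 48.6 scaled fragments to 1661 ± 69.0 (a log2 fold change of −0.60, standard error 0.07, adjusted p = 4.3e-05 from limma). Fen1, the flap endonuclease, and Lig1, the ligase that seals the fragments, had log2 fold changes of 0.03 and −0.14, their groups overlapped, and neither passed the test (adjusted p = 0.78 and 0.14 from limma).

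Genes that work beside the machinery were compared through lists of neighbouring pathways, and their counts are read beside the 29.7% of all genes that were higher, the 37.3% that were lower and the median of −0.10. Of 30 fork accessory and checkpoint factors, 7 were higher (23.3%) and 15 lower (50%), with a median log2 fold change of −0.31. Scaling each library to the same total, or voom, gave 6 higher and 21 lower (median −0.44). Pold4, a small subunit of polymerase delta that is not among the 46 members, had the largest increase of this list. It had 383, 364 and 535 scaled fragments in the MP libraries and 722, 840 and 849 in the APL libraries (log2 fold change 0.93, standard error 0.15, adjusted p = 5.4e-04 from limma). Chek1, the S-phase checkpoint kinase, had the largest decrease, from 1702, 1656 and 1672 to 1009, 938 and 1005 (−0.77, standard error 0.07, adjusted p = 1.1e-05 from limma). Nucleotide supply had 1 gene higher (Shmt1, a folate enzyme, at 0.36) and 10 lower of 13 (76.9%), with a median of −0.39. Mthfd1, a folate enzyme that feeds purine and thymidylate synthesis, fell from 9877, 10460 and 11259 scaled fragments to 3000, 3053 and 3305 (a log2 fold change of −1.75, standard error 0.08, adjusted p = 1.7e-07 from limma). Among the 10 genes of chromatin assembly behind the fork, 1 was higher (10%) and 5 lower (50%, median −0.19). Asf1a, a histone chaperone, had −1.06 and its paralog Asf1b 0.22, an increase that was lost with each library scaled to the same total, where 0 genes of the list were higher also at an unadjusted p under 0.05 in limma. Relative to the median of chromosome 8, Asf1b turned to −0.26 and passed as lower (adjusted p = 0.026 from limma). Of 11 other DNA polymerases measured, 0 were higher and 6 lower (54.5%, median −0.35) with limma, where an unadjusted p under 0.05 also gave 0 higher, and Polm, a polymerase of end joining, had −1.95.

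Regulators of S-phase entry were compared in the same way. Of 13 genes in the cell cycle control of licensing, 1 was higher (Skp2, a ubiquitin ligase subunit that targets CDT1, at 0.48) and 7 were lower (53.8%, median −0.23). With each library scaled to the same total or with voom, 1 was higher and 11 were lower (median −0.36). Ccne1, the cyclin that drives entry into S phase, had 1949, 2026 and 2262 scaled fragments in the MP libraries and 668, 751 and 701 in the APL libraries (log2 fold change −1.55, standard error 0.08, adjusted p = 5.4e-07 from limma). Of 16 genes of the E2F and RB family, 3 were higher (18.8%) and 7 lower (43.8%), with a median of −0.11 that lay next to that of all genes. The genes past 1.5-fold were E2f6, a repressor (−1.50), E2f2, an activator (−1.27), and the dimer partner Tfdp2 (−1.19) among decreases, and Rbl2, an RB relative that restrains E2F targets (0.82), and E2f7, an atypical repressor (0.67), among increases. The smaller changes that passed were those of E2f5 (−0.53), E2f3 (−0.44), E2f4 (−0.42) and Lin9 (−0.31) among decreases and of the dimer partner Tfdp1 (0.55) among increases. E2f1 had 0.20 and Rb1 −0.20, and neither passed the test. Of 12 genes of mitosis and proliferation, 9 were lower (75%) and 0 higher with limma, where an unadjusted p under 0.05 also gave 0 higher, with a median of −0.31. Relative to chromosome medians, Ccnb1 (adjusted p = 0.068), Kif11 (0.074), Cdc20 (0.31) and Tpx2 (0.27, all from limma) did not pass. Ccnb2, Plk1, Aurka, Bub1 and Birc5 still passed as lower. Ccnb2, a mitotic cyclin, had the largest decrease of that list (−0.71), and Mki67, the proliferation marker, had 20004, 20178 and 13527 scaled fragments in the MP libraries and 19464, 15659 and 16118 in the APL libraries, which overlapped (log2 fold change −0.05, adjusted p = 0.80 from limma).

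The positions of the genes of these lists were examined as well. Over the 7 lists 13 genes were higher, 4 of them on chromosome 8 (Rnaseh2a, Asf1b, Tfdp1 and Rbl2) and 4 on chromosome 15 (Dscc1, Mtbp, Tonsl and Skp2), whose median log2 fold change was 0.46 over the genes tested. Chromosome 8 held 9 genes of these lists, so that 44.4% of them were higher, against 58.9% of all its genes tested, and another 4 (Chtf8, Dctd, Cul4a and E2f4) were lower. Relative to the median of chromosome 8, Rbl2 still passed as higher (0.34, adjusted p = 0.0011) and Asf1b passed as lower. Tfdp1 (0.07, adjusted p = 0.43) and Rnaseh2a (−0.15, 0.32, all from limma) did not pass. Chromosome 15 held 5 genes of these lists, of which 4 were higher and 0 lower in limma, on a chromosome where 57.4% of the 563 genes tested were higher and 17.6% lower. The remaining gene, Recql4, had a log2 fold change of 0.02 (adjusted p = 0.82). Relative to the median of chromosome 15, none of the 4 passed. They stood at −0.06 (Dscc1, adjusted p = 0.71), 0.06 (Mtbp, 0.50), −0.08 (Tonsl, 0.46) and 0.02 (Skp2, 0.85, all from limma). Recql4 passed as lower on that scale (−0.44, adjusted p = 9.9e-04 from limma). No member of the replication machinery lies on chromosome 15. On other chromosomes, some decreases of these lists were also lost relative to the chromosome median, such as those of Tyms (adjusted p = 0.80) and Clspn (0.12). Those of Chek1 (7.1e-05) and Mthfd1 (3.1e-07, all from limma) still passed.

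**Figure D4:**
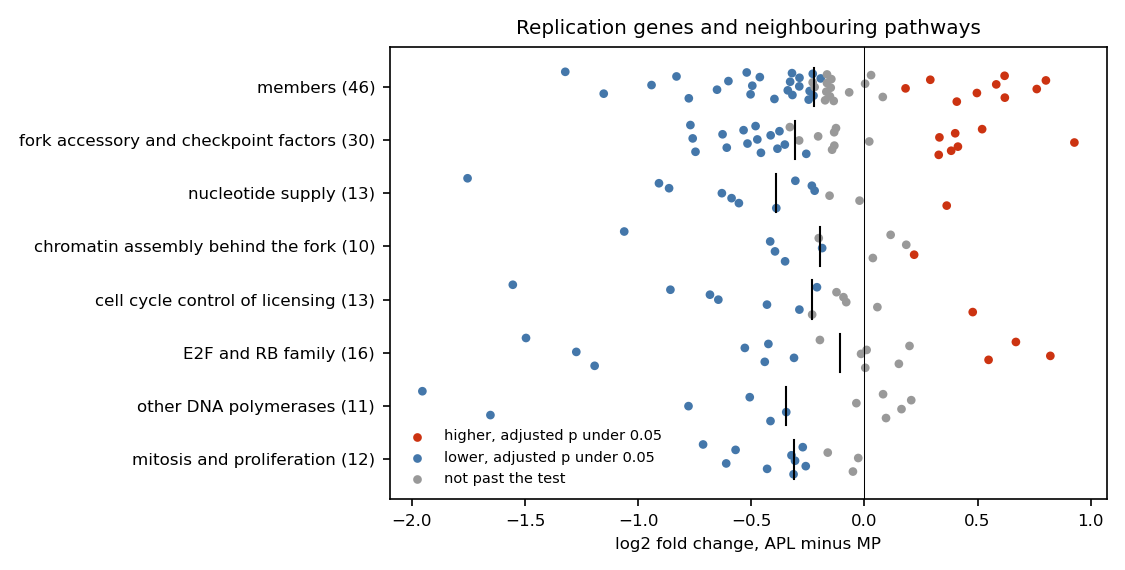
Each point is a gene, the x axis is its log2 fold change (APL minus MP, limma), rows are the 46 members and the lists of neighbouring pathways with the number of genes tested, and black bars are medians. Red and blue points passed the test in either direction and grey points did not. Medians lie between −0.39 and −0.11 in every row.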

How the data were processed

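Sorted BM cells of 3 normal MP and 3 c-Kit+ APL libraries were profiled by RNA-seq. Per the labels, reads were handled with CASAVA 1.8 and TopHat2 2.0.6 on mm10. The paper's methods name other tools and mm9, and the tool that made the table is not given in the sources used here. The deposited values are FPKM and scaled fragments, a signal in which each library was multiplied by a factor by the authors. Between 87.4% and 89.2% of values under 1000 were whole multiples (tolerance 0.02) of 1 step, worth 0.867 to 1.23 per library. The other values under 1000 were not. No count model was used, since the deposited values are scaled.

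Genes with at least 1 scaled fragment in at least 3 libraries (14595) were fitted in limma 3.58.1 (R 4.3.3, lmFit and eBayes with trend) on log2(scaled fragments + 1), without covariates, with Benjamini-Hochberg adjustment. Fold changes understate low genes. FPKM served levels between genes. The steps were tested on simulated data. Promoters were read with Python 3.11.15.

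Members and lists were chosen with earlier results of these data known. Full values are given for Mcm2 to Mcm7, Cdc6, Cdt1, Gmnn, Pcna, the 5 largest changes each way and members on chromosome 8. Log2 fold changes, in part with library values, are given for the extremes of each role group and pathway list and for all called E2F genes. The highest values of the other DNA polymerases and of mitosis and proliferation, which did not pass, are left out. Gins1, E2f1, Rb1, Mki67 and the ratios were added after their values were seen. Orc3, Orc4, Orc5, Gins2, Pold2, Rfc4 and Lig1, and of the other genes named Asf1a, E2f5, Rb1, Rbl2, Recql4 and Gp1bb, share a locus in the table with another gene, so their values are less certain. Ahsp and Primpol were not found by name. One marker list is not reported here as a whole. Alternatives covered filters, pseudocounts, scalings, FPKM, weights, thresholds, chromosome medians, a replicate block and each library left out.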

Additional observations from a re-analysis of the deposited data

How the results depend on the processing

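The median log2 fold change of the members (−0.22) was −0.35 with each library scaled to the same total, −0.35 with voom, −0.25 with quantile normalization, −0.16 with median ratio scaling and −0.086 relative to chromosome medians, and it ranged from −0.23 to −0.18 with each library left out. The counts past 1.5-fold (4 higher and 7 lower) were 2 and 11 with the same total, 2 and 11 with voom, 2 and 4 relative to chromosome medians, 0 and 2 at 2-fold with limma, and 9 and 23 on the adjusted p alone. Over all 14595 genes tested, 3167 were higher and 3558 lower past 1.5-fold. These all-gene counts were 2753 and 4273 with the same total, 2735 and 4264 with voom, and 3371 and 3014 relative to chromosome medians. No member reached a 2-fold increase, whatever its p. On the adjusted p alone the counts of members were 7 and 34 with the same total or voom, 9 and 19 with median ratio scaling, 9 and 31 with quantile normalization, and 4 and 12 relative to chromosome medians. No share of all genes on the adjusted p alone is given for these settings. With each library left out the counts of members past 1.5-fold ranged from 3 to 5 and from 6 to 8. Scaling to the same total and voom each lowered the median of all genes by a further 0.13. Relative to chromosome medians the sign reversed for Mcm3 (0.012), Mcm5 (−0.19), Mcm10 (0.0083), Orc3 (0.026), Orc6 (−0.30), Cdc7 (0.047), Dbf4 (0.030), Gins1 (0.011) and Pole4 (0.053), which follows from subtracting those medians. With quantile normalization, the same total and voom, Gmnn was at −0.011, −0.13 and −0.13 and Fen1 at −0.087, −0.10 and −0.10, and Rfc3 was at −0.050 with the same total and with voom. Leaving out libraries moved Gmnn between −0.10 and 0.10 and Fen1 between −0.021 and 0.11. Of 874 values of single members under the alternatives, 758 kept direction and side of the threshold, and 0 of the members past the adjusted p in limma changed sign outside the chromosome alternative.

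When library numbers entered as a replicate block, the counts past 1.5-fold were 4 and 7, and 8 members were higher and 25 lower on the adjusted p, with Orc6 lost (0.0519). Same-numbered libraries correlated at 0.261, −0.133 and 0.255 over 11002 genes, so the numbers were not taken to pair the libraries. Depth limited no member, since the lowest had 527 scaled fragments.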
